A study of Mus musculus with 6 samples.

Results

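The expression of 10 genes of bone morphogenetic protein (BMP) and activin signalling was examined in cultured cardiac fibroblasts (CFs) of wild-type (WT) and CharmeKO mice. The genes were picked by symbol from the 19446 genes of the count table, and they comprise the ligands *Bmp2*, *Bmp4*, *Bmp6* and *Inhba*, the receptors *Bmpr1a*, *Bmpr2* and *Acvr2a*, the secreted antagonists *Fst* and *Grem1*, and the target gene *Id1*. All 10 passed the filter on low values. RNA-sequencing had been performed on 3 WT and 3 CharmeKO libraries, and the comparison asked which genes differ when the long non-coding RNA *Charme* is lost. In CharmeKO mice a polyadenylation signal was inserted into the *Charme* locus, a change carried by the mouse line and not restricted to fibroblasts. The paper states that adult CFs do not express *Charme*. It proposes that altered signals from cardiomyocytes possibly reach the CFs, which was not tested here. Both groups came from C57BL/6J mice, aged 5 weeks by the labels, while the explant protocol of the study gives a range around that age. They were cultured without further treatment on fibronectin in IMDM medium with 20% fetal bovine serum, as explants of atrial tissue collected from several littermates. A library may thus hold cells of several animals. The methods of the study name independent primary cell isolations as its replicates, while the labels do not tie a library to an isolation. P-values measure the spread between these libraries. Freshly isolated CFs were not analysed here.

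BMPs and activins are secreted dimers of the TGF-beta superfamily. They bind pairs of type I and type II receptor kinases, which phosphorylate SMAD proteins that enter the nucleus and control target genes such as the *Id* family. Secreted antagonists bind the ligands outside the cell and keep them from the receptors. In the heart this pathway shapes valves and chambers during development, and activin and BMP signals act on fibroblasts in injured tissue.

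The libraries held 38330019 to 46797446 recovered reads, of which the 10 genes with the most reads took 7.25 to 13.5%. The knocked-out gene was followed through CUFF405, the 1 feature with no Ensembl identifier, on the assumption that it stands for *Charme*. Its read counts were 5, 15 and 11 in the WT libraries and 0, 6 and 3 in the CharmeKO libraries, in order of replicate number. All 10 cardiac fibroblast markers examined were measured in every library, with a summed level of 25409 to 53797 CPM (reads scaled to a common library total). *Col1a1*, at 9285 to 20004 CPM, *Col1a2*, *Col3a1* and *Vim* took most of this sum. Other markers of the list were lower and varied more, such as *Tcf21* with 5.07 to 41.0 CPM and *Postn* with 12.9 to 243 CPM. The summed endothelial markers (6 of 8 measured) stayed between 1.69 and 8.86 CPM, and the cardiomyocyte markers (3 of 7 measured) between 3.22 and 18.5 CPM. *Cdh5* had 0 reads in WT 2 and CharmeKO 3, and *Ryr2* had 0 reads in CharmeKO 2 and CharmeKO 3. A count of 0 allows up to 0.0641 to 0.0783 CPM (3 reads), depending on the library.

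Promoter sequence is shown for *Bmp4*, *Inhba* and *Acvr2a*. They are members that were lower in CharmeKO in every same-numbered pair of libraries, and the 250 bases before their RefSeq start lie outside the annotated gene. RefSeq windows matched 7 of the 10 members, without *Bmp2*, *Fst* and *Id1*. The sequences are read 5′ to 3′ on the strand of the gene from GRCm38.p6. The *Bmp4* window is chr14:46390670-46390919 on the minus strand, the *Inhba* window chr13:16011601-16011850 on the plus strand and the *Acvr2a* window chr2:48813859-48814108 on the plus strand. Capitals mark matches on either strand to any of 6 motifs. These are the SMAD box with the letters CAGAC and the GC-rich SMAD site with the letters GGCGCC, which SMAD proteins can bind. The GC box has the letters GGGCGG, and the AP-1 site has TGACTCA. The cyclic AMP response element has TGACGTCA, and the TATA box has TATAAA.
Bmp4: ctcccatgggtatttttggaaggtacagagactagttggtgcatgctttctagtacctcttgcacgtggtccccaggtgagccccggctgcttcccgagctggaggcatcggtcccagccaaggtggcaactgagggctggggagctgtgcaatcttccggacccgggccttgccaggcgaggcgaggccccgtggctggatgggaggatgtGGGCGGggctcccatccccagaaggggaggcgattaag
Inhba: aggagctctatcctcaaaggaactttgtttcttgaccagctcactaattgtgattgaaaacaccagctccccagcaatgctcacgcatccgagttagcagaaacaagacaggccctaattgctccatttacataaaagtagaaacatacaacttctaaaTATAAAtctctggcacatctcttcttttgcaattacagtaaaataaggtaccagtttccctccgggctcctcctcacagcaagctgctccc
Acvr2a: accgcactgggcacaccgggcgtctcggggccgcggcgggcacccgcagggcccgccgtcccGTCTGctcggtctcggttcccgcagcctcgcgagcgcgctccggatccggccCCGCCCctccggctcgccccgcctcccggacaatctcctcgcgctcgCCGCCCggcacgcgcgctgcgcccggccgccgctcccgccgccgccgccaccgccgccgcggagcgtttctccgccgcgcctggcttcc

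The 3 windows differed in composition, with 63.2% G and C in *Bmp4*, 43.2% in *Inhba* and 82% in *Acvr2a*, against a median of 52.4% over all 32851 windows of the table. *Bmp4* held 1 GC box, whose first base lies 38 bases before the start. *Inhba* held 1 TATA box, 91 to 86 bases before the start, and no GC box. *Acvr2a* held 1 SMAD box, 188 bases before the start, and 2 GC boxes, which begin 136 and 89 bases before it, all on the opposite strand. No marked match overlapped another in these 3 windows. Over all windows of this length, a SMAD box was present in 42.2%, a GC-rich SMAD site in 9.59%, a GC box in 32.7%, an AP-1 site in 4.46%, the cyclic AMP element in 1.55% and a TATA box in 12.4%. No motif was common to the 3 windows, and a match describes letters only.

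The levels of the members were compared per kilobase (kb) of exon sequence, as normalised reads per kb averaged over the 6 libraries. *Grem1* stood highest with 10519 ± 7119 normalised reads per kb (mean ± SD, n = 6 libraries), and this mean lay at percentile 99.3 of all genes tested. *Id1* followed with 4044 ± 1333, *Bmpr1a* with 1127 ± 234 and *Inhba* with 482 ± 316 normalised reads per kb. *Grem1* was above *Id1* in 5 of 6 libraries, and *Id1* was above *Bmpr1a*, and *Bmpr1a* above *Inhba*, in 6 of 6. *Bmpr2* had 444 ± 74.7, *Fst* 373 ± 327 and *Bmp4* 297 ± 249 normalised reads per kb, and the order among *Inhba*, *Bmpr2*, *Fst* and *Bmp4* changed between libraries, each being above the next in 3 or 4 of 6. *Bmp4* was above *Acvr2a* in 5 of 6 libraries. *Acvr2a* with 143 ± 27.6 and *Bmp6* with 133 ± 122 could not be ordered (4 of 6 libraries). *Bmp2* was lowest in all 6 libraries at 15.7 ± 11.2 normalised reads per kb. The antagonist *Grem1* was thus the most abundant transcript of the list per length, and the receptors varied least: the highest library exceeded the lowest 1.67-fold for *Bmpr1a*, 1.62-fold for *Bmpr2* and 1.71-fold for *Acvr2a*, against 30.4-fold for *Bmp6* and 12.7-fold for *Fst*.

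**Figure D1:**
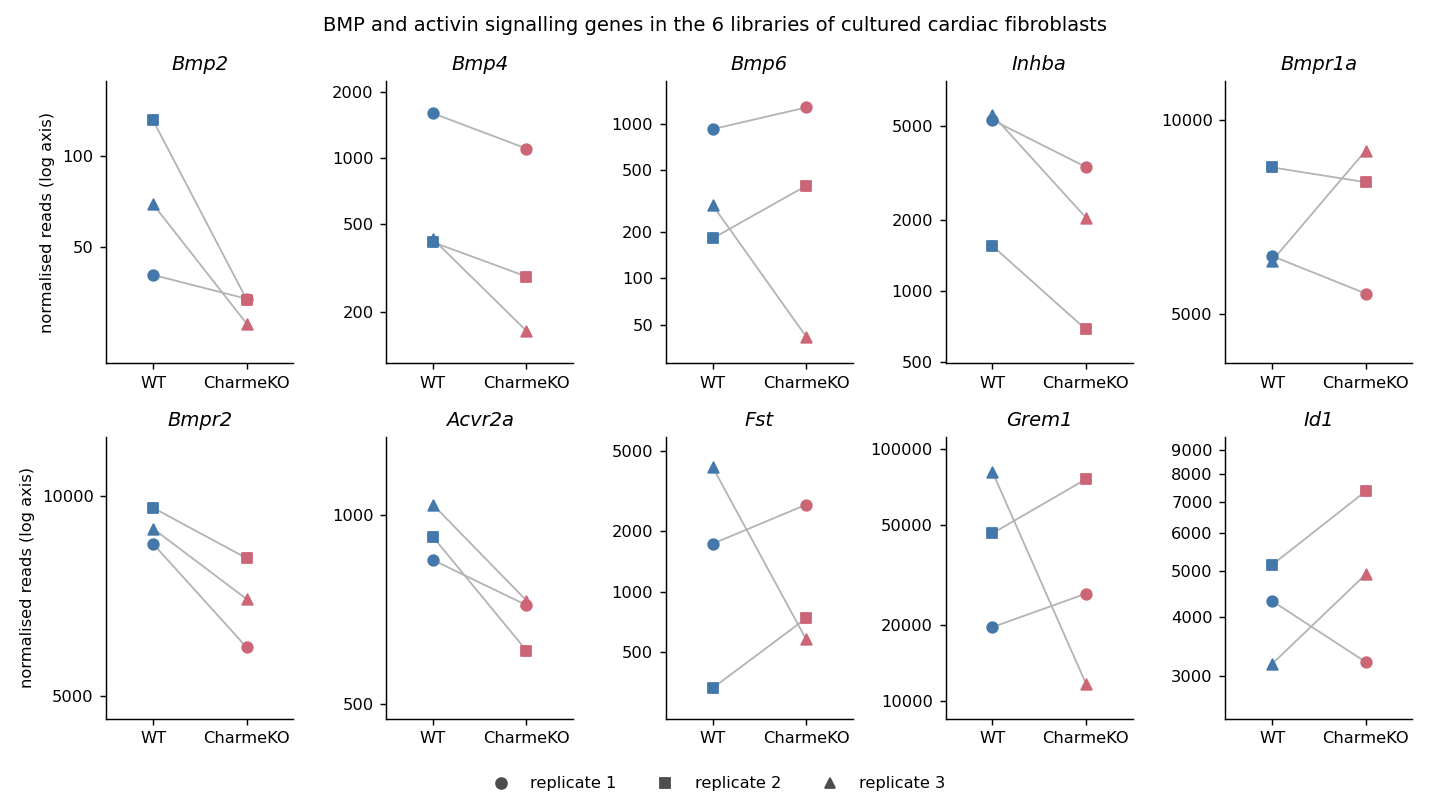
Normalised reads (log axis) of the 10 members in WT (left, blue) and CharmeKO (right, red) libraries, with a marker per replicate number and grey lines joining same-numbered libraries. The values of *Bmp2*, *Bmpr2* and *Acvr2a* do not overlap between the genotypes, while in *Bmp6*, *Fst* and *Grem1* the line of replicate 3 falls and the lines of replicates 1 and 2 rise.

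With limma, 0 of the 10 members and 0 of all 15948 genes tested (0%) had an adjusted p under 0.05, and the adjusted p of every member was 0.9999. At an unadjusted p under 0.05 there was 1 member, *Acvr2a*, beside 143 of all genes (0.897%). The member count was 0 without WT 3, without CharmeKO 1 and without CharmeKO 3, and the count of all genes ran from 68 without WT 3 to 468 without CharmeKO 1. With all libraries, the member count was also 0 with scaling by library totals, and it was 2 in edgeR and in DESeq2 without the block. Of the members, 8 had a lower and 2 a higher mean log2 value in CharmeKO, with a median log2 fold change of -0.43, against 0.0022 over all genes tested. In 3 members (*Bmp2*, *Bmpr2* and *Acvr2a*) every CharmeKO library lay below every WT library, which was the case for 1.98% of all genes. Libraries were paired by replicate number, though the labels do not say what a pair shares. Pair 3 is the least certain: its deviations correlated at r = 0.217, below the 0.222 of WT 2 with CharmeKO 3. In each of the 3 pairs, 5 members (*Bmp2*, *Bmp4*, *Inhba*, *Bmpr2* and *Acvr2a*) were lower in CharmeKO, as were 14% of all genes. No member was higher in all 3 pairs, where 16.4% of all genes were. With the replicate number as a block, limma gave the same 5 members an unadjusted p under 0.05, beside 857 of all genes (5.37%), and an adjusted p of 0.7997 each. DESeq2 with the block called 1 member, *Inhba*, beside 64 of all genes (0.401%). These are bulk libraries, in which fewer cells of a type and less RNA per cell cannot be told apart.

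**Figure D2:**
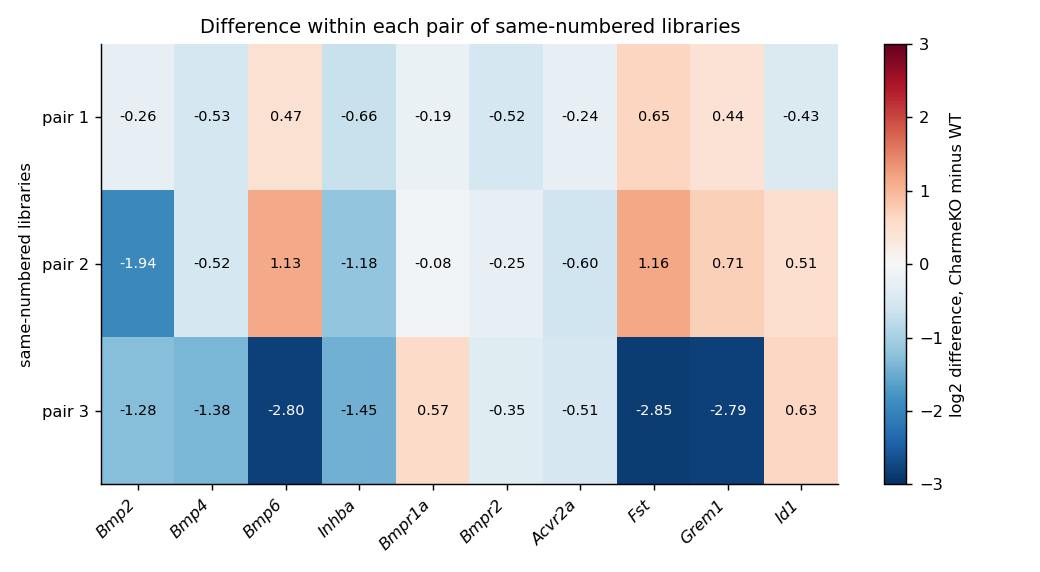
Log2 difference, CharmeKO minus WT, on the log2(value + 1) scale within each pair of same-numbered libraries (rows) for each member (columns), with blue for lower and red for higher in CharmeKO. *Bmp2*, *Bmp4*, *Inhba*, *Bmpr2* and *Acvr2a* are negative in all 3 pairs, and *Bmp6*, *Fst* and *Grem1* are positive in pairs 1 and 2 and at or below -2.79 in pair 3.

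Among the ligands, *Inhba* encodes the beta A subunit, of which a pair forms activin A. The gene (ENSMUSG00000041324) spans 16011851 to 16031621 on the plus strand of chromosome 13 in GRCm38. *Inhba* had 5293, 1550 and 5574 normalised reads in WT 1, 2 and 3 and 3345, 685 and 2041 in CharmeKO 1, 2 and 3. In each genotype the library numbered 2 was the lowest, and the groups overlapped because WT 2 lay below CharmeKO 1 and CharmeKO 3. The means were 4139 ± 2247 in WT and 2024 ± 1330 in CharmeKO (SD, n = 3 each), giving a log2 fold change of -1.10 (SE 0.719). Within the pairs the log2 differences were -0.66, -1.18 and -1.45, so that the CharmeKO library was below its WT partner each time. The replicate number held 70.8% of the variance of the log2 values of *Inhba* and genotype 26.8%. With the replicate block the SE was 0.174 in limma (adjusted p = 0.7997), and DESeq2 with the block gave an adjusted p of 0.000465. That call was lost without the libraries numbered 2, where DESeq2 with the block put the log2 fold change at -1.05 (adjusted p = 0.210). The adjusted p-values in this fit were 0.00149 and 0.00939 without pair 1 and pair 3. The calls over all genes were also fewest without pair 2, at 13, against 144 and 89 without pair 1 and pair 3. edgeR with the block did not call *Inhba* (adjusted p = 0.839), nor did any fit without the block.

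*Bmp2*, a ligand of the BMP type receptors with roles in valve formation and bone, was the least abundant member. The gene (ENSMUSG00000027358) lies on the plus strand of chromosome 2 from 133552159 to 133562885. It had 40.4, 131 and 69.2 normalised reads in WT 1, 2 and 3 and 33.7, 33.4 and 27.8 in CharmeKO 1, 2 and 3. All CharmeKO values were below all WT values, although WT 1 exceeded the highest CharmeKO library by little. The means were 80.3 ± 46.5 in WT and 31.6 ± 3.30 in CharmeKO (SD, n = 3), and the spread was thus mostly among WT libraries. The log2 fold change was -1.16 (SE 0.520, 95% confidence interval -2.41 to 0.085), and it ranged from -1.57 without WT 1 to -0.73 without WT 2. Behind these values stood as few as 32 reads in a library. The exact permutation test gave p = 0.1, the smallest value that 3 against 3 libraries allow.

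*Bmp4*, a BMP of the same subgroup as *Bmp2*, followed the replicate number more than the genotype. The gene (ENSMUSG00000021835) spans 46383520 to 46390669 on the minus strand of chromosome 14. It had 1597, 415 and 430 normalised reads in WT 1, 2 and 3 and 1105, 290 and 164 in CharmeKO 1, 2 and 3. Both libraries numbered 1 were above all others, and the groups overlapped. The replicate number held 83.4% of the variance and genotype 13.3%. The log2 fold change was -0.81 (SE 0.827), with pair differences of -0.53, -0.52 and -1.38. It was -1.59 without CharmeKO 1 and -0.17 without WT 1. In CharmeKO 3, where *Bmp4* was lowest, the summed level of the mesothelial markers was lowest too, and both were highest in the libraries numbered 1. Of the single markers, *Upk3b*, *Msln* and *Upk1b* followed this order, while *Wt1*, *Krt19* and *Lrrn4* did not. The summed level (6 of 7 measured, none at 0) was 310, 39.4 and 64.8 CPM in WT 1, 2 and 3 and 345, 91.1 and 21.7 CPM in CharmeKO 1, 2 and 3. The part of these markers in the values of *Bmp4* was not tested.

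*Bmp6*, a BMP known from iron regulation in the liver, had the widest range of the members. The gene (ENSMUSG00000039004) lies on the plus strand of chromosome 13 from 38345107 to 38500302. It had 920, 180 and 297 normalised reads in WT 1, 2 and 3 and 1271, 395 and 41.7 in CharmeKO 1, 2 and 3. CharmeKO libraries held both the highest and the lowest value. Its log2 fold change was -0.40 (SE 1.26), and its direction depended on the fit: it was 0.29 in edgeR, 0.28 in DESeq2, 0.26 without WT 1 and 0.95 without CharmeKO 3. The pair differences were 0.47, 1.13 and -2.80.

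Of the receptors, *Acvr2a* encodes a type II receptor that binds activins and several BMPs. The gene (ENSMUSG00000052155) spans 48814109 to 48903269 on the plus strand of chromosome 2. It had 849, 925 and 1040 normalised reads in WT 1, 2 and 3 and 719, 609 and 731 in CharmeKO 1, 2 and 3. Every CharmeKO library was below every WT library, and each group spanned a narrow range. The means were 938.0 ± 96.4 in WT and 686 ± 67.7 in CharmeKO (SD, n = 3). The log2 fold change was -0.45 (SE 0.182, 95% confidence interval -0.89 to -0.014), and genotype held 77.9% of the variance, the largest share among the members. The limma adjusted p over all genes was 0.9999, and the exact permutation test gave p = 0.1, the smallest possible. Leaving out 1 library at a time kept the log2 fold change between -0.52 and -0.37.

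*Bmpr2*, the type II receptor for BMPs, showed a similar profile. The gene (ENSMUSG00000067336) lies on the plus strand of chromosome 1 from 59763400 to 59879014. Another annotated gene, Gm38125, overlaps it on the same strand, and STAR's counting leaves out reads in a part that both share. *Bmpr2* had 8469, 9599 and 8928 normalised reads in WT 1, 2 and 3 and 5912, 8057 and 6991 in CharmeKO 1, 2 and 3. The groups did not overlap, and CharmeKO 1 was the lowest library. The means were 8999 ± 568 in WT and 6987 ± 1072 in CharmeKO (SD, n = 3), giving a log2 fold change of -0.37 (SE 0.175, 95% confidence interval -0.80 to 0.046; limma adjusted p = 0.9999). The pair differences were -0.52, -0.25 and -0.35, and the exact permutation test gave p = 0.1, the smallest possible. Among the members, *Bmpr2* and *Acvr2a* had the closest profiles, with a root mean square difference of 0.222 between their centred log2 values over the 6 libraries.

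*Bmpr1a*, a type I receptor kinase for BMPs, did not follow the type II receptors. The gene (ENSMUSG00000021796) spans 34410734 to 34503341 on the minus strand of chromosome 14. It had 6143, 8434 and 6039 normalised reads in WT 1, 2 and 3 and 5372, 7998 and 8955 in CharmeKO 1, 2 and 3. The CharmeKO libraries held both the lowest and the highest value. CharmeKO stood against WT at a log2 fold change of 0.10 (SE 0.253, 95% confidence interval -0.51 to 0.71), and without CharmeKO 3 it was -0.051. The pair differences were -0.19, -0.08 and 0.57.

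**Figure D3:**
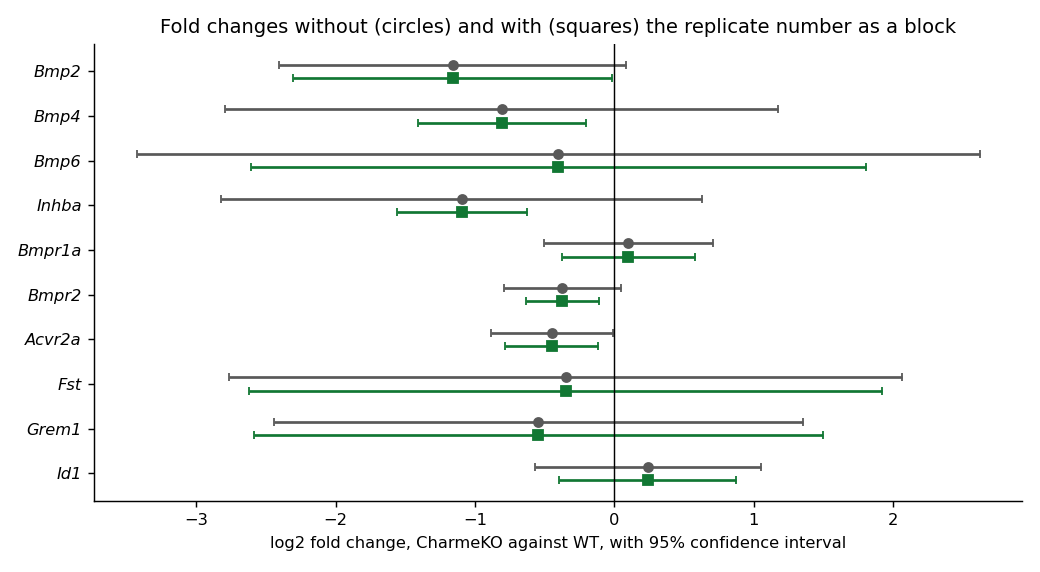
Log2 fold change of each member, CharmeKO against WT, with its 95% confidence interval in limma without (circles) and with (squares) the replicate number as a block. The intervals of *Bmp4* and *Inhba* are narrower with the block, and those of *Bmp6*, *Fst* and *Grem1* include 0 in both fits.

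Of the antagonists, *Grem1* encodes gremlin, which binds BMP dimers, including those of *Bmp2* and *Bmp4*. The gene (ENSMUSG00000074934) lies on the minus strand of chromosome 2 from 113746164 to 113758646. It had 19653, 46303 and 81422 normalised reads in WT 1, 2 and 3 and 26695, 75978 and 11739 in CharmeKO 1, 2 and 3. The highest value was in WT 3 and the lowest in its CharmeKO partner, and the groups overlapped throughout. The log2 fold change was -0.55 (SE 0.790), and without CharmeKO 3 it was 0.10. The pair differences were 0.44, 0.71 and -2.79, and neither genotype (7.18%) nor the replicate number (31.6%) held most of the variance.

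*Fst* encodes follistatin, which binds activins and blocks their access to the receptors. The gene (ENSMUSG00000021765) spans 114452290 to 114458951 on the minus strand of chromosome 13. It had 1732, 330 and 4181 normalised reads in WT 1, 2 and 3 and 2714, 736 and 578 in CharmeKO 1, 2 and 3. WT libraries held both extremes, and within the WT group the highest was 12.7 times the lowest. The log2 fold change was -0.35 (SE 1.01), against 0.47 without WT 3 and 0.080 without CharmeKO 3. The pair differences were 0.65, 1.16 and -2.85. DESeq2 with the replicate block on all libraries gave -0.21 (adjusted p = 0.9998). Without pair 3, a fit chosen after seeing the data, it gave 0.89 (adjusted p = 0.0493). Pair 3 was the only pair with *Fst* lower in CharmeKO, so the direction of that fit was set by leaving it out.

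*Bmp6*, *Fst* and *Grem1* had the same signs in the pairs, higher in CharmeKO 1 and 2 and lower in CharmeKO 3 than in the WT partner. These 3 of 10 members stand beside 16.6% of all genes with these signs, which depend on pair 3, the least certain pair. Of the markers that passed the filter, all 8 of macrophages and leukocytes and 4 of 6 mesothelial ones had the same signs. So had 1 of 5 endothelial and 1 of 2 cardiomyocyte markers, but 0 of 10 cardiac fibroblast and 0 of 8 smooth muscle and pericyte markers. The differences of *Csf1r*, 1 of the 8, were small (0.02, 0.19 and -0.12). The summed macrophage and leukocyte markers were at 190, 104 and 40.2 CPM in WT 1, 2 and 3 and at 408, 310 and 17.8 CPM in CharmeKO 1, 2 and 3. *Ptprc*, the defining leukocyte gene, had 0 reads in CharmeKO 3. The part of these markers in the values of *Bmp6*, *Fst* and *Grem1* was not tested.

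Smooth muscle and pericyte markers were examined beside the members. Of these 8 markers, 5 (*Myh11*, *Actg2*, *Cspg4*, *Lmod1* and *Des*) were lower in CharmeKO in every pair, as were 14% of all genes. The members *Bmp2*, *Bmp4*, *Inhba*, *Bmpr2* and *Acvr2a* had these signs too. The other markers, *Rgs5*, *Pdgfrb* and *Notch3*, were lower in pairs 1 and 2 but higher in pair 3, with log2 differences there of 0.54, 0.65 and 0.76. The summed level of the list, of which *Pdgfrb* takes the most, was 770, 822 and 728 CPM in WT 1, 2 and 3 and 621, 673 and 784 CPM in CharmeKO 1, 2 and 3, and none of its genes was at 0. The part of these markers in the values of the 5 members was not tested.

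**Figure D4:**
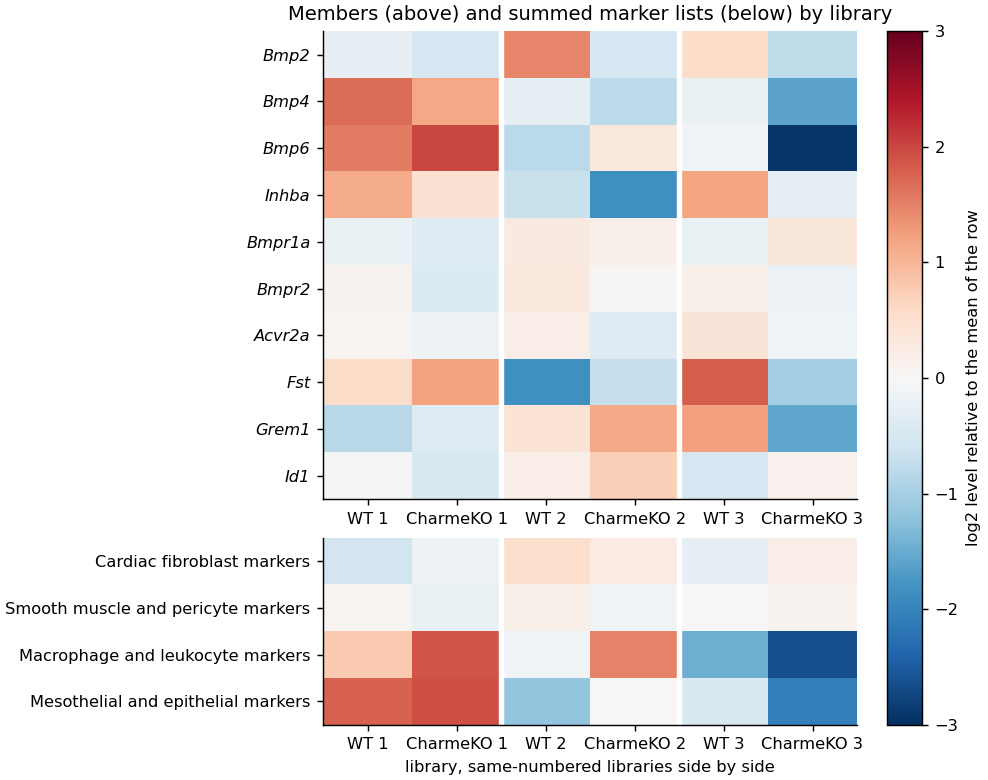
Log2 level of each member (upper panel, normalised reads) and of summed marker lists (lower panel, CPM) relative to the mean of its row, with same-numbered libraries side by side. *Bmp6* and the macrophage and mesothelial lists are lowest in CharmeKO 3, and *Bmp4* and *Bmp6* are highest in the libraries numbered 1.

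*Id1*, a helix-loop-helix protein without a DNA-binding domain, is a direct target of BMP-activated SMADs. The gene (ENSMUSG00000042745) lies on the plus strand of chromosome 2 from 152736251 to 152737410. It had 4323, 5150 and 3186 normalised reads in WT 1, 2 and 3 and 3216, 7358 and 4917 in CharmeKO 1, 2 and 3. CharmeKO 2 was the highest library, and the groups overlapped. The means were 4220 ± 986 in WT and 5163 ± 2082 in CharmeKO (SD, n = 3), giving a log2 fold change of 0.24 (SE 0.338, 95% confidence interval -0.57 to 1.05), which was -0.058 without CharmeKO 2. In limma its log2 fold change was positive where those of the 4 ligands were negative, but that of *Bmp6* was 0.29 in edgeR and 0.28 in DESeq2. The pair differences of *Id1* were -0.43, 0.51 and 0.63. Among the members *Bmpr1a* was nearest to *Id1*, with a root mean square difference of 0.269 between centred log2 values. Over all genes tested the nearest were Gm20033 (0.0718), 1810010H24Rik (0.107) and A930033H14Rik (0.122), which are far less abundant, with 35.2 to 84.5 normalised reads for Gm20033.

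A ligand was then set against its antagonist within each library. The log2 ratio of *Inhba* to *Fst* was 1.61, 2.23 and 0.415 in WT 1, 2 and 3 and 0.301, -0.104 and 1.82 in CharmeKO 1, 2 and 3. It was lower in CharmeKO in pairs 1 and 2 and higher in pair 3. The mean was 1.42 ± 0.922 in WT and 0.672 ± 1.01 in CharmeKO (SD, n = 3), and the difference of -0.75 did not exceed the spread (exact permutation p = 0.4). The log2 ratio of *Bmp4* to *Grem1* was -5.99 ± 2.09 in WT and -6.26 ± 1.72 in CharmeKO (SD, n = 3), a difference of -0.26 (exact permutation p = 0.9) that became 0.92 without WT 1 and 0.62 without CharmeKO 2.

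The rest of the pathway was described by a list of 56 further genes, of which 46 were tested. With limma, 0 of the 46 had an adjusted p under 0.05 and 0 an unadjusted p under 0.05. There were 27 genes lower and 19 higher in CharmeKO, and a median log2 fold change of -0.044. Of the 46, 7 were lower in every pair (14% of all genes were) and 6 higher in every pair (16.4% of all genes). With the replicate block limma gave 4 (*Bmp8a*, *Bmpr1b*, *Hey1* and *Smurf2*) an unadjusted p under 0.05, beside 5.37% of all genes. The list had placed *Bmp1* among the ligands by its name, but it encodes a procollagen protease, and it is left out of the count by role. Without it the list had 45 genes tested, 27 lower and 18 higher in CharmeKO, and 5 higher in every pair. By role, 2 of 7 ligands, 4 of 10 receptors, 9 of 11 antagonists, 6 of 8 transducers and 6 of 9 targets were lower in CharmeKO. These roles are as listed and mix genes that promote and oppose signalling. Examples are the ubiquitin ligases *Smurf1* and *Smurf2* among the transducers, *Inha* among the ligands and *Kcp* among the antagonists.

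The genes with the lowest p-values in each role are given with their values. *Bmpr1b*, a type I BMP receptor, had 250, 348 and 982 normalised reads in WT 1, 2 and 3 and 167, 199 and 307 in CharmeKO 1, 2 and 3. It was lower in CharmeKO in every pair, as *Bmpr2* and *Acvr2a* were, but its groups overlapped (log2 fold change -1.02, SE 0.546). *Acvrl1*, a type I receptor best known from endothelium, stood at 4037, 2395 and 2941 normalised reads in WT and at 4419, 2818 and 238 in CharmeKO 1, 2 and 3. A log2 fold change of -1.08 came with a value in CharmeKO 3 far below all others. Among the antagonists, *Chrd*, which encodes chordin, was higher in CharmeKO in every pair, at 523 ± 130 normalised reads in WT and 729 ± 128 in CharmeKO (log2 fold change 0.49, SE 0.264), and *Kcp*, a chordin relative, had a log2 fold change of -0.38. Of the ligands, *Bmp8a* was scarce, with 2.95 to 33.5 normalised reads and a log2 fold change of -1.42 (SE 0.812), and *Inhbb*, the beta B subunit of activin B, had -0.43. Of the target genes, *Hey1* had 27.6, 24.6 and 13.2 normalised reads in WT 1, 2 and 3 and 16.3, 4.92 and 2.61 in CharmeKO 1, 2 and 3, and *Msx2* had a log2 fold change of -1.09. Of the transducers, *Smurf2*, a ubiquitin ligase acting on the pathway, had a log2 fold change of -0.31 and *Smad1*, which carries the BMP signal to the nucleus, of 0.27. All of these genes had a limma adjusted p of 0.9999.

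**Figure D5:**
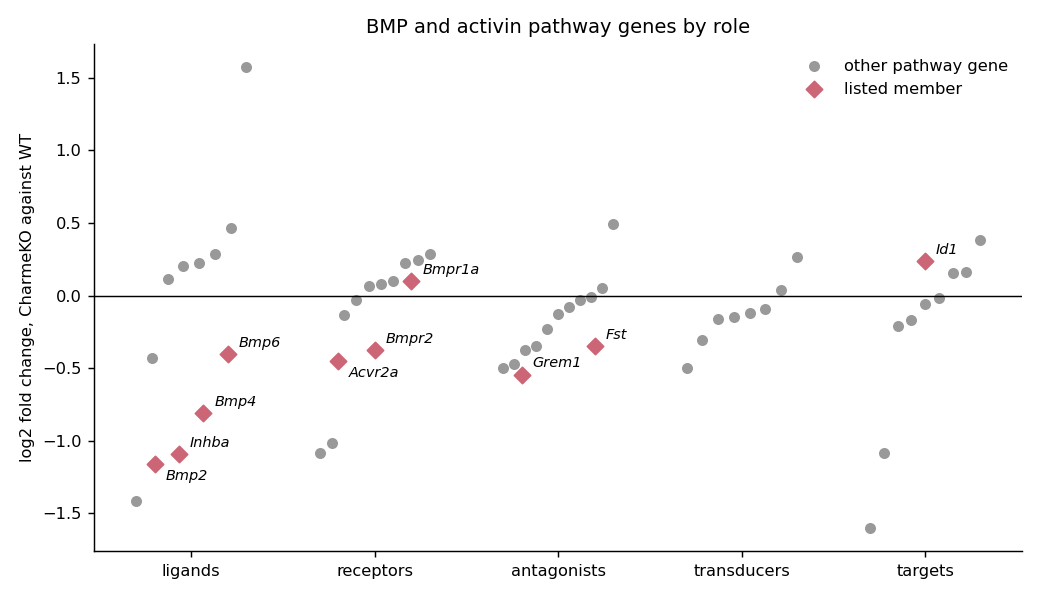
Log2 fold change, CharmeKO against WT, of the 10 members (red diamonds, named) and of the 46 further pathway genes (grey circles), arranged by role along the horizontal axis. The members among the ligands lie below 0, and 5 of the 7 other genes listed as ligands lie above it. The remaining circle in that column, at 0.22, is the protease *Bmp1*.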

How the data were processed

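Poly(A) RNA of the 6 libraries was sequenced with a directional kit. The authors aligned reads with STAR, counted them per gene on the reverse strand on an Ensembl annotation with *Charme* added, dropped genes of low count and applied DESeq2 normalisation. The labels name GRCm39, whereas the reference annotation used here for positions and exon lengths is GENCODE M21 on GRCm38. No genome coordinates of the table itself were used. The deposited values are a signal of normalised read counts per gene. They were whole multiples of what 1 read is worth in the library, and 100% of 116676 values gave whole reads (largest deviation 6.3e-09). The limits given for counts of 0 cover counting error only, since no molecular identifiers are named in the labels and reads may be PCR copies. Confidence intervals of fold changes come from limma and rest on the spread between libraries.

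The main test was limma (3.58.1, R 4.3.3) with its mean-variance trend, applied to log2(value + 1) with genotype as the sole term; this scale understates changes of genes with few reads. It covered the 15948 genes that had 10 reads or more in 2 or more libraries. Benjamini-Hochberg adjustment ran over all these genes, and the threshold was 0.05. Ratios were tested with a two-sided exact permutation test over the libraries. Alternatives were pseudocounts of 0.5 and 5, no filter, scaling by library totals, edgeR (4.0.16) and DESeq2 (1.42.0) on the recovered reads, the replicate number as a block, and leaving out each library. DESeq2 with the block and without each pair was chosen after seeing the data. The code of the fits was tested on simulated reads with known changes, which does not measure how the fits perform on these libraries. Figures were drawn with matplotlib 3.10.9 in Python 3.11.15.

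Replicate numbers come from the sample titles. Across genes, a WT library and the CharmeKO library of its number deviated from their groups' means together (r = 0.762 for number 1, 0.514 for number 2 and 0.217 for number 3). Each r exceeded the required 0.1, and libraries of unlike number gave -0.643 to 0.222. The value of 0.222 was that of WT 2 with CharmeKO 3, which also passed 0.1 and lay above the r of number 3. The check thus cannot tell pair 3 from this combination. On this ground libraries of 1 number were treated as a pair, though the labels do not say what a pair shares. The members and gene lists were chosen with earlier results of these data known, so no p-value was adjusted over a list and no list was tested as a set. Besides the members, the text names the 2 further pathway genes per role with the lowest limma p, any past the threshold, and the 3 genes nearest to *Id1* in root mean square difference of centred log2 values.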

Additional observations from a re-analysis of the deposited data

How the results depend on the processing

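The numbers of genes, members and further pathway genes past the adjusted threshold were 0 with limma, and also 0 whichever of the 6 libraries was left out. They stayed at 0 with pseudocounts of 0.5 and 5, without the filter, with scaling by library totals, in edgeR and with the replicate block in limma and edgeR. DESeq2 called 8 of all genes and 0 members without the block, and 64 of all genes and 1 member with the replicate block. That member was *Inhba*, and the block changed no other member's call. In DESeq2 with the block and 1 pair left out, chosen after seeing the data, 13 to 144 of all genes, 0 to 2 members and 0 to 1 further pathway genes were called. The 2 members were *Inhba* and *Fst* without pair 3, and the pathway gene was *Gdf10*, named after its values were seen, with 38.4 to 821 normalised reads in WT and 14.8 to 11799 in CharmeKO. The cause was not tested.

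*Bmp2*, *Bmp4*, *Inhba*, *Bmpr2* and *Acvr2a* were lower in CharmeKO in every alternative run. The sign of *Bmp6* changed in edgeR (0.29) and DESeq2 (0.28), and over the fits that left out 1 library it ran from -1.50 to 0.95. The same ranges were -0.051 to 0.32 for *Bmpr1a*, -1.36 to 0.47 for *Fst*, -1.25 to 0.10 for *Grem1* and -0.058 to 0.54 for *Id1*. In DESeq2 with the block, leaving out 1 pair gave -1.14 to 0.78 for *Bmp6*, -0.14 to 0.24 for *Bmpr1a*, -1.10 to 0.89 for *Fst* and -1.17 to 0.57 for *Grem1*. The difference between genotypes in the log2 ratio of *Inhba* to *Fst* was -1.32 to -0.34 and that of *Bmp4* to *Grem1* -1.10 to 0.92 with 1 library left out. With 3 libraries per group the exact test cannot go below p = 0.1, and intervals as wide as that of *Bmp6* (-3.43 to 2.62) leave changes of either direction undetectable here.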
